A study of Mus musculus with 25 samples.

Results

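Piwil4, Cmtm2b, Slc17a8 and Gadl1 were examined in the sciatic nerve of mouse models of Charcot-Marie-Tooth disease type 1A (CMT1A). They are 4 of the 56956 genes of the count table, and they were chosen by their log2 fold changes, as genes with the largest rises in C3 or in C22 against the corresponding control. The values of C3 against WT-C3 and of C22 against WT-C22 therefore describe how the genes were chosen and are given without a test. RNA of whole sciatic nerve was sequenced as 25 libraries. Each of 5 groups gave 1 library per age, and the ages in weeks were 3, 5, 7, 9 and 12. C3 mice (B6.Cg-Tg(PMP22)C3Fbas/J) carry 5 additional copies of human PMP22 from a yeast artificial chromosome on C57BL/6J, and WT-C3 mice are C57BL/6J. C22 mice carry 10 additional copies on FVB/NRJ, and WT-C22 mice are FVB/NRJ. The last group, labelled C3-PMP22 c-JunP0Cre and called C3 without c-Jun here, carries the C3 transgene and loses c-Jun where P0 Cre is active, which is in Schwann cells. Its strain background is not given in the sources used here. The animals were untreated, a library pooled 4 to 5 of them, males and females, and 1 batch is given for all. Since a group has 1 pool per age, its 5 pools of different age were used as replicates (n = 5), and each SD and standard error (SE) includes the change with age.

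CMT1A follows from an extra copy of PMP22, which encodes a membrane protein of compact myelin, the sheath that Schwann cells wrap around axons. Schwann cells of diseased or injured nerve raise c-Jun, a transcription factor of the AP-1 family, and take up genes of an immature or repair state. The 4 genes have their known roles elsewhere. Piwil4 (also MIWI2) encodes a PIWI protein that binds small piRNAs and silences transposons in fetal male germ cells. Cmtm2b encodes a membrane protein with a MARVEL domain and is known from testis. Slc17a8 encodes VGLUT3, which loads glutamate into vesicles, in inner hair cells for instance. Gadl1 encodes a decarboxylase that can form beta-alanine and taurine and is known from skeletal muscle.

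Piwil4 (ENSMUSG00000036912) lies on the minus strand of chromosome 9 from 14607526 to 14652036, in GRCm39 with GENCODE M39. Gadl1 (ENSMUSG00000056880) lies on the plus strand of the same chromosome from 115713947 to 115905245. Slc17a8 (ENSMUSG00000019935) lies on the minus strand of chromosome 10 from 89409882 to 89457326. Cmtm2b (ENSMUSG00000035785) lies on the plus strand of chromosome 8 from 105048834 to 105057397. Sequences around the start of transcription were found in RefSeq for 4 of the 4 genes, as 6 entries of 250 bases before and 50 bases after a start. They are shown because the genes were all high in C3 and because c-Jun, which was removed in 1 group, binds AP-1 sites. The table was made on GRCm38.p6, and each of the 6 sequences matched its chromosome in GRCm39 exactly at 1 place, whose coordinates are given. Capitals mark letters that matched a motif, each line runs 5′ to 3′ on the strand of the gene, and the first bases are the most upstream ones.
Piwil4, chr9:14651919-14652218, minus strand, start 68 bases inside the GENCODE gene: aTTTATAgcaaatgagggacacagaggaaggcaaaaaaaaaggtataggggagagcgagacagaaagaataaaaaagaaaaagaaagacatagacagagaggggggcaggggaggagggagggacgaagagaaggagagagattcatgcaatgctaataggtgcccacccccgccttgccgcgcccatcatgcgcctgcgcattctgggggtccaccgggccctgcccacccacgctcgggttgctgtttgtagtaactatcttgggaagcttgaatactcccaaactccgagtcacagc
Piwil4, chr9:14629634-14629933, minus strand, start 22353 bases inside the gene: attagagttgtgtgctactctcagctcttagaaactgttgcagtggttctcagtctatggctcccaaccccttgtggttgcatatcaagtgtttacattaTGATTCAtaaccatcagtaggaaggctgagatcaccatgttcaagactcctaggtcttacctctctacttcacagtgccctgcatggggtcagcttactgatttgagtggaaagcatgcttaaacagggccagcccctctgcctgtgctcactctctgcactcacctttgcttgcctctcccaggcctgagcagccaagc
Cmtm2b, chr8:105048609-105048908, plus strand, start 25 bases inside the gene: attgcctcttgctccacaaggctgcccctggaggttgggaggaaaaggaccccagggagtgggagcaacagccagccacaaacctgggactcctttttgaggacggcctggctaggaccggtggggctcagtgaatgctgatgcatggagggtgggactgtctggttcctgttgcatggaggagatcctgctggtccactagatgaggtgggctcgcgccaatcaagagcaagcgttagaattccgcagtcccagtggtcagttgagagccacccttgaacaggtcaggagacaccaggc
Slc17a8, chr10:89457062-89457361, minus strand, start 215 bases inside the gene: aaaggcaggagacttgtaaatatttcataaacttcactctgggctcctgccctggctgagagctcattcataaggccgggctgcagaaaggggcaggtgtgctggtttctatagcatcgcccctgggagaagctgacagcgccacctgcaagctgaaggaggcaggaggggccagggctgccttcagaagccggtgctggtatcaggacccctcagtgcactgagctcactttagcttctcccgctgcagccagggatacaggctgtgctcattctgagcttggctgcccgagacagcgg
Gadl1, chr9:115738273-115738572, plus strand, start 24576 bases inside the gene: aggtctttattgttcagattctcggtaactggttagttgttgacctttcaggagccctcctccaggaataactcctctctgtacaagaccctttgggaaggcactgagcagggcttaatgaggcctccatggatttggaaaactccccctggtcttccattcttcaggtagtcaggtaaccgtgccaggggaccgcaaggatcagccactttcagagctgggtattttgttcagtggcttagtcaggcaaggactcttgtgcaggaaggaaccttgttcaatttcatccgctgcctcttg

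Both strands of these windows were searched for the AP-1 site TGANTCA, the cAMP response element TGACGTCA, the SOX site ACAAAG, the EGR site GTGGGCG and the TATA box TATAAA. None of these motifs contains another. An AP-1 match was found in the internal Piwil4 window, 150 bases before its start, and 7.81% of all 32851 RefSeq windows of this length hold one. The outer Piwil4 window held TATAAA on the opposite strand, 249 bases before the start, as 13.6% of all windows do on either strand. The printed windows of Slc17a8, Gadl1 and Cmtm2b and a second Slc17a8 window held none of the 5 motifs, which are in 1.79% (cAMP response element), 18.7% (SOX) and 7.97% (EGR) of all windows. The outer Piwil4 window held 11 CpG dinucleotides, the Slc17a8 window 7, the Cmtm2b window 6, the Gadl1 window 4 and the internal Piwil4 window 0. These matches describe letters and do not show that a factor binds there.

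The files hold raw counts per gene, from 2140142 on genes in the C3 library of 9 weeks to 49072746, with a median of 24663235. Levels are given as CPM (counts scaled to a common library total) after TMM scaling of all libraries in edgeR. The limit of detection was set at 3 counts per library. Human PMP22 was 12623 ± 1608 CPM in C3, 11431 ± 3064 CPM in C3 without c-Jun and 11846 ± 1507 CPM in C22 (SD, n = 5), with overlap between C3 and C22, and at most 6.40 CPM in the controls. Jun was 110 ± 11.6 CPM in C3 and 29.2 ± 2.44 CPM in C3 without c-Jun (SD, n = 5), a log2 fold change of -1.90 (edgeR adjusted p = 7.29e-07, SE 0.09). The 10 markers of myelinating Schwann cells were all above 3 counts in every library. In RNA of whole nerve, fewer cells of a type and less RNA per cell cannot be told apart.

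Piwil4 was low in both controls and high in all 15 transgenic libraries. In WT-C3 it had 21, 14, 6, 10 and 11 counts from the youngest to the oldest age, or 1.64, 1.11, 0.686, 0.794 and 0.672 CPM. In C3 it had 1754, 1116, 1791, 97 and 961 counts, or 52.4, 43.2, 35.96, 45.3 and 39.6 CPM. The small count of the C3 library of 9 weeks goes with its depth, and its level lay among those of the other ages. In C3 without c-Jun Piwil4 had 487, 1570, 1345, 1397 and 975 counts, or 25.8, 47.7, 49.2, 56.7 and 35.3 CPM. In WT-C22 it had 68, 19, 41, 46 and 57 counts, or 2.61, 2.02, 1.69, 1.80 and 1.43 CPM. In C22 it had 4936, 3092, 4520, 3330 and 4441 counts, or 168, 150.1, 161.9, 120 and 169 CPM. Every C22 library lay above every C3 library, and no library of a model overlapped with its control. The means were 43.3 ± 6.21 CPM in C3 against 0.980 ± 0.408 in WT-C3 and 153.8 ± 20.3 in C22 against 1.91 ± 0.448 in WT-C22 (SD, n = 5). The log2 fold change was 5.45 (SE 0.21) in C3 and 6.35 (SE 0.17) in C22.

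Cmtm2b was near the limit of detection in WT-C3 and reached its highest level in C22. In WT-C3 it had 7, 3, 0, 0 and 1 counts from the youngest to the oldest age, or 0.547, 0.237, 0, 0 and 0.0611 CPM, so that 4 of the 5 libraries were at or under 3 counts. In C3 it had 100, 99, 123, 12 and 56 counts, or 2.99, 3.84, 2.47, 5.60 and 2.31 CPM. In C3 without c-Jun it had 73, 105, 110, 120 and 115 counts, or 3.86, 3.19, 4.02, 4.87 and 4.16 CPM. The libraries of these last 2 groups overlapped with each other and lay above all WT-C3 libraries. In WT-C22 Cmtm2b had 19, 9, 7, 8 and 4 counts, or 0.731, 0.956, 0.288, 0.312 and 0.1001 CPM. In C22 it had 1747, 1419, 1432, 1097 and 1261 counts, or 59.5, 68.9, 51.3, 39.5 and 48.0 CPM. Each C22 library was thus above each C3 library. The counts summed over ages, relative to depth, were 17.4 times higher in C3 than in WT-C3 (95% exact binomial interval 9.61 to 35.1) and 156.9 times higher in C22 than in WT-C22 (117.9 to 213.8). These intervals cover counting error only. The fitted log2 fold change was 4.12 (SE 0.56) in C3 and 7.08 (SE 0.35) in C22. Without the WT-C3 library of 3 weeks, which held 7 of the 11 WT-C3 counts, it was 5.20 in C3 (SE 0.57).

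Slc17a8 was highest in C3. In WT-C3 it had 3, 9, 6, 10 and 7 counts from the youngest to the oldest age, or 0.234, 0.711, 0.686, 0.794 and 0.427 CPM. In C3 it had 448, 378, 550, 13 and 181 counts, or 13.4, 14.6, 11.0, 6.07 and 7.46 CPM. The 2 oldest C3 libraries were the lowest of the group and still above all controls. In C3 without c-Jun it had 76, 158, 88, 50 and 47 counts, or 4.02, 4.80, 3.22, 2.03 and 1.70 CPM, which lay below all C3 libraries and above all WT-C3 libraries. In WT-C22 it had 23, 8, 39, 46 and 92 counts, or 0.884, 0.850, 1.61, 1.80 and 2.30 CPM. In C22 it had 80, 45, 72, 81 and 70 counts, or 2.72, 2.18, 2.58, 2.92 and 2.66 CPM. C22 was above WT-C22 at each age, but the 12-week WT-C22 library exceeded the 5-week C22 library. The log2 fold change was 4.27 (SE 0.33) in C3 and 0.75 (SE 0.25) in C22.

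Gadl1 was high in C3 and low in C22. In WT-C3 it had 5, 15, 3, 30 and 19 counts from the youngest to the oldest age, or 0.390, 1.18, 0.343, 2.38 and 1.16 CPM. In C3 it had 956, 651, 848, 22 and 155 counts, or 28.6, 25.2, 17.0, 10.3 and 6.39 CPM. In C3 without c-Jun it had 468, 633, 433, 276 and 244 counts, or 24.8, 19.2, 15.8, 11.2 and 8.82 CPM. In both groups the level was lower at each age than at the one before it, and their ranges overlapped. In WT-C22 Gadl1 had 25, 16, 40, 44 and 95 counts, or 0.961, 1.70, 1.65, 1.72 and 2.38 CPM. In C22 it had 34, 22, 20, 22 and 32 counts, or 1.16, 1.07, 0.716, 0.793 and 1.22 CPM, which was below WT-C22 at 4 of 5 ages, with overlap. The log2 fold change was 3.99 (SE 0.51) in C3 and -0.78 (SE 0.25) in C22.

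**Figure D1:**
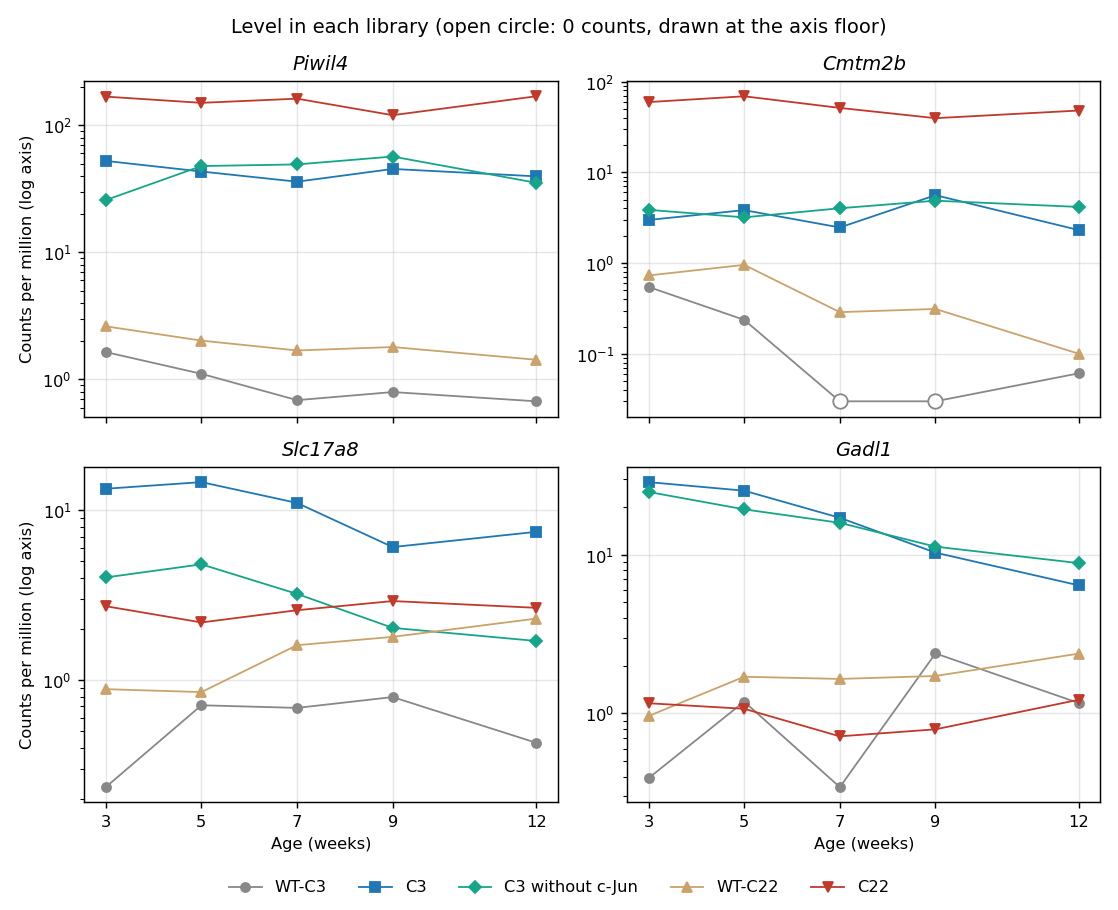
Level of each gene (CPM, log axis) against age in weeks, with 1 point for each library and a line for each group, and open circles for libraries with 0 counts. Piwil4 and Cmtm2b are highest in C22, whereas Slc17a8 is highest in C3 and separated there from C3 without c-Jun, and Gadl1 is high in both of these groups, with the higher level in C3 at 3, 5 and 7 weeks and in C3 without c-Jun at 9 and 12 weeks.

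The 4 genes thus fall into a pair with its higher level in C22 and a pair with its higher level in C3. On the log2 scale, the change in C22 minus that in C3 was 0.88 (SE 0.29) for Piwil4 and 2.94 (SE 0.97) for Cmtm2b. Without the WT-C3 library of 3 weeks it was 0.63 (SE 0.29) and 1.89 (SE 1.34). This difference was -3.53 (SE 0.43) for Slc17a8 and -4.79 (SE 0.61) for Gadl1. C3 and C22 differ both in strain and in the number of copies, which cannot be told apart. In a gene's own order of group means, Piwil4 went from WT-C3 to WT-C22, then C3 without c-Jun and C3 at about the same level, and then C22. Cmtm2b had the same order except that C3 without c-Jun (4.02 ± 0.603 CPM) stood slightly above C3 (3.44 ± 1.35 CPM), within their spread (SD, n = 5). Slc17a8 went from WT-C3 (0.571 ± 0.233 CPM) to WT-C22 (1.49 ± 0.621), C22 (2.61 ± 0.271), C3 without c-Jun (3.15 ± 1.31) and C3 (10.52 ± 3.70), where WT-C22 overlapped with C22 and C22 with C3 without c-Jun. Gadl1 went from C22 (0.991 ± 0.224 CPM) to WT-C3 (1.09 ± 0.827), WT-C22 (1.68 ± 0.502), C3 without c-Jun (16.0 ± 6.36) and C3 (17.5 ± 9.46), where the first 3 and the last 2 overlapped. Between genes, levels were compared per kilobase of exon. In C3, Piwil4 had the highest mean at 8.03 CPM per kilobase, followed by Cmtm2b at 3.51, Gadl1 at 3.12 and Slc17a8 at 2.13. In C22, Cmtm2b was highest at 54.5 CPM per kilobase, followed by Piwil4 at 28.5, Slc17a8 at 0.530 and Gadl1 at 0.177.

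The filter on low counts left 13993 genes, and all 4 genes were among them through the transgenic libraries, since a log2 CPM above 1 was needed in 7 libraries. Of the genes tested, 23.9% were differentially expressed at an adjusted p under 0.05 in C3 and 42.4% in C22, of which the genes higher in the model made up 12.5% and 21.9% of all tested. The genes lower in the model made up 11.4% and 20.5%, and the libraries did not overlap, with the model higher, for 9.27% and 16.1% of all tested. Among the mouse genes, Piwil4 had the largest log2 fold change in C3. Nxf7 (4.70), Marveld3 (4.57), Tyrp1 (4.53) and Fbp1 (4.10) ranked between the 4 genes there, and Kcnj10 (3.73) came just after Gadl1. In C22, Cmtm2b had the largest log2 fold change, followed by Nxf7 (6.69), Piwil4 and then Cntn6 (6.28) and Slain1 (6.12). In C22, Slc17a8 was at rank 740 and Gadl1 at rank 13042 of the 13993 genes.

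**Figure D2:**
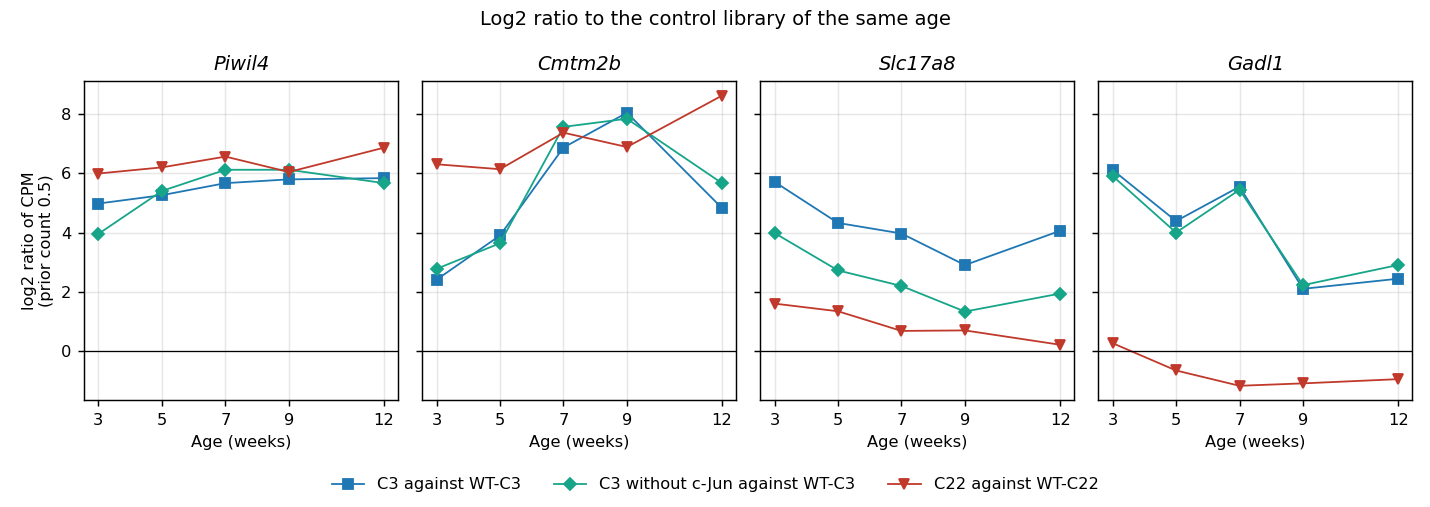
Log2 ratio of the CPM of a library to that of the control library of the same age, with a prior count of 0.5, against age in weeks, for C3 and C3 without c-Jun relative to WT-C3 and for C22 relative to WT-C22. For Gadl1 the ratio in C3 is 6.12 at 3 weeks and 2.44 at 12 weeks and in C22 it is between -1.18 and 0.26, whereas for Piwil4 it is at least 3.96 in every transgenic group and age.

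At each age the ratio to the control was above 0 in C3 for all 4 genes. For Piwil4 the log2 ratio was 4.98 at 3 weeks and 5.84 at 12 weeks in C3 and was between 5.99 and 6.87 in C22. For Cmtm2b it was between 2.41 and 8.05 in C3, with the 2 highest values at 7 and 9 weeks, where the WT-C3 library had 0 counts, and between 6.14 and 8.63 in C22. For Slc17a8 it was between 2.90 and 5.71 in C3, and in C22 it was 1.60 at 3 weeks and 0.21 at 12 weeks. Plots of these ratios show the 2 lowest ratios of Gadl1 in C3 at 9 and 12 weeks, with values of 2.098 and 2.44.

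C3 without c-Jun was compared to C3. No group has Cre alone, and the strain background of C3 without c-Jun is not given. Effects of Cre or strain thus cannot be told apart from the loss of c-Jun. Of all genes tested, 0.55% (77 genes) were differentially expressed, with 0.222% higher and 0.329% lower. This number was 43 and 45 without the C3 library of 5 or 7 weeks, and 47, 45 and 50 without the library of 5, 7 or 9 weeks of C3 without c-Jun. Of the 4 genes, 1 was differentially expressed. Slc17a8 was lower without c-Jun at 5 of 5 ages, with a log2 fold change of -1.78 (edgeR adjusted p = 0.0234, SE 0.31). The log2 ratio of the libraries of the same age was between -2.12 and -1.57, and the 2 groups did not overlap, which, with C3 without c-Jun lower, held for 1.11% of all genes. The C3 libraries are among those by which the gene was chosen for a high level in C3. The adjusted p was above the threshold when the C3 library of 5 weeks (0.0849) or 7 weeks (0.0766) was left out, or the library of C3 without c-Jun of 7 weeks (0.0848) or 9 weeks (0.0719). With age as a block, which pairs libraries of the same age, the adjusted p of Slc17a8 was 0.000438, and 273 genes in all were differentially expressed.

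Piwil4, Gadl1 and Cmtm2b did not pass in this comparison. Piwil4 had a log2 fold change of -0.001 (edgeR adjusted p = 1, SE 0.19), and its ratio by age was between -1.02 at 3 weeks and 0.45 at 7 weeks. For Gadl1 the log2 fold change was -0.18 (edgeR adjusted p = 0.976, SE 0.38), and it was lower at 3 of 5 ages. For Cmtm2b it was 0.37 (edgeR adjusted p = 0.767, SE 0.22), and it was higher at 3 of 5 ages. These values do not show that the 3 genes are the same with and without c-Jun.

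C3 without c-Jun was also compared to WT-C3. The WT-C3 libraries are those the genes were chosen with, which favours genes that are low there. All 4 genes were higher at 5 of 5 ages with no overlap, where 21.5% of all genes were differentially expressed, 10.3% were higher, 11.3% were lower and 8.08% were higher without overlap. The log2 fold change was 5.44 (edgeR adjusted p = 3.16e-07, SE 0.28) for Piwil4 and 4.48 (edgeR adjusted p = 5.42e-05, SE 0.48) for Cmtm2b, which was 5.56 without the WT-C3 library of 3 weeks. It was 3.82 (edgeR adjusted p = 6.26e-05, SE 0.42) for Gadl1. For Slc17a8, which had 4.27 in C3, it was 2.48 (edgeR adjusted p = 0.000672, SE 0.38).

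The 2 controls differ in strain, and the strain comparison shares its libraries with the choice of the genes as well. A choice by a rise over WT-C3 favours genes that are low there, and so a higher level in WT-C22. Slc17a8 had 3 to 10 counts in the WT-C3 libraries and 8 to 92 in those of WT-C22. Its p value is therefore not independent of the choice. In WT-C22 compared to WT-C3, 21.7% of all genes were differentially expressed, with 9.99% higher and 11.7% lower. Slc17a8 was higher in WT-C22 with a log2 fold change of 1.45 (edgeR adjusted p = 0.0157, SE 0.37), at 5 of 5 ages and with no overlap, which with WT-C22 higher held for 7.6% of all genes. Piwil4 was higher by 0.94 (edgeR adjusted p = 0.0311, SE 0.28) at 5 of 5 ages, with overlap. This call was lost in 7 of the 10 comparisons that left out 1 library each, with the WT-C3 library of 5, 7, 9 or 12 weeks or the WT-C22 library of 3, 5 or 9 weeks left out (adjusted p from 0.0516 to 0.0741). Gadl1 (0.59, SE 0.43, edgeR adjusted p = 0.363) and Cmtm2b (1.21, SE 0.84, edgeR adjusted p = 0.342) did not pass. With 1 library left out, Cmtm2b was between 0.84 and 2.29, with the highest value without the WT-C3 library of 3 weeks.

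Change with age within a group was tested by a natural spline (3 degrees of freedom) in 1 fit of the 25 libraries over 15298 genes, and a linear slope gave the direction. Cmtm2b did not pass the filter of that fit. In C3, 2.27% of all genes passed the spline test and in C3 without c-Jun 3.38%, and 5.96% of all genes passed with a linear slope in C3. Gadl1 fell with age in C3, with a slope of -0.25 per week on the log2 scale (SE 0.04, edgeR spline adjusted p = 0.0479). This call was lost without the C3 library of 3 weeks (0.102), 9 weeks (0.0613) or 12 weeks (0.236), and over the genes of the log2 CPM filter (0.0578), whereas the linear slope had an edgeR adjusted p of 0.00301. In C3 without c-Jun the slope of Gadl1 was -0.17 per week (SE 0.04), with an edgeR adjusted p of 0.1203 for the spline and 0.0197 for the linear slope, where 5.97% of all genes passed with a linear slope. Slc17a8 fell with age in C3 without c-Jun (-0.17 per week, SE 0.04, edgeR spline adjusted p = 0.0478), and without each of its libraries in turn the adjusted p was between 0.117 and 0.449. With 2 degrees of freedom for the spline it was 0.0598, and for the linear slope 0.0208. In C3 the slope of Slc17a8 was -0.12 per week (SE 0.04, edgeR spline adjusted p = 0.116). In WT-C22 its slope was 0.16 per week (SE 0.05), with an edgeR adjusted p of 0.114 for the spline and 0.0346 for the linear slope, where 2.86% and 7.77% of all genes passed.

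Piwil4 passed the spline test in C3 without c-Jun (edgeR adjusted p = 0.0383) with a slope of 0.04 per week (SE 0.04, edgeR adjusted p = 0.611 for the linear slope), and its level there was lowest at 3 weeks. The spline call was lost over the genes of the log2 CPM filter (0.0503). Without the 3-week library the adjusted p was 0.685 and the slope -0.05, and without any other library of the group it was between 0.0519 and 0.166. No slope of the 3 genes passed in C22 or WT-C3, where 0.752% and 0.693% of all genes passed the spline test and 0.784% and 2.62% the linear one (edgeR adjusted p of the 3 genes from 0.333 up). The difference between the slopes of C3 and WT-C3 was -0.40 per week (edgeR adjusted p = 0.200, SE 0.08) for Gadl1, lower in C3, and 0.0196% of all genes passed that test. No difference in slope between a model and its control, or between C3 without c-Jun and C3, passed for Piwil4, Slc17a8 or Gadl1 (edgeR adjusted p from 0.200 to 1.00). Of all genes, 0.464% passed for C22 minus WT-C22 and 0.00654% for C3 without c-Jun minus C3. In a fit over the genes of the log2 CPM filter, the slope of Cmtm2b was -0.30 per week (SE 0.08, edgeR spline adjusted p = 0.197) in WT-C22 and -0.06 per week (SE 0.03, edgeR spline adjusted p = 0.502) in C22.

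The neighbours of the genes on the chromosome were examined, with the 2 nearest protein-coding genes on each side. Of the neighbours of Slc17a8, Nr1h4 rose in both models. Nr1h4, which encodes the bile acid receptor FXR, lies 40385 bases from Slc17a8 and was 9.92 CPM in C3, 4.59 CPM in C3 without c-Jun, 4.34 CPM in C22, 1.03 CPM in WT-C3 and 0.854 CPM in WT-C22 on average. Its log2 fold change was 3.27 in C3 (edgeR adjusted p = 0.000124, SE 0.35) and 2.29 in C22 (edgeR adjusted p = 4.50e-05, SE 0.26). Without c-Jun it was lower than in C3, with a log2 fold change of -1.12 (edgeR adjusted p = 0.00587, SE 0.16). It was still higher than in WT-C3, by 2.15 (edgeR adjusted p = 0.000873, SE 0.34). Scyl2, 12340 bases away on the other side of Slc17a8, had a log2 fold change of -0.19 in C3 (edgeR adjusted p = 0.0726, SE 0.07) and -0.01 in C22 (edgeR adjusted p = 0.888, SE 0.07).

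Cmtm3, of the same family as Cmtm2b and 8588 bases from it, rose by 0.43 in C3 (edgeR adjusted p = 0.0127, SE 0.10) and by 1.13 in C22 (edgeR adjusted p = 1.10e-05, SE 0.11). Cmtm4, which follows, had -0.12 in each model, and Cmtm1 on the other side did not pass the filter. Cmtm2a, a close paralog of Cmtm2b, had at most 1 count in any library. Fut4, a fucosyltransferase 7580 bases from Piwil4, rose by 0.72 in C3 (edgeR adjusted p = 0.0293, SE 0.21), a call lost without the C3 library of 3, 5 or 7 weeks or the WT-C3 library of 3, 7 or 12 weeks (up to 0.0727). In C22 it had 0.33 (edgeR adjusted p = 0.0803, SE 0.14). Tgfbr2, 8116 bases from Gadl1, had a log2 fold change of -0.07 in C3 (edgeR adjusted p = 0.494, SE 0.07), and Stt3b on the other side had 0.08 (edgeR adjusted p = 0.506, SE 0.08). Amotl1 near Piwil4 (-0.48), Gas2l3 near Slc17a8 (-1.11) and Rbms3 near Gadl1 (-0.50) fell in C22, with edgeR adjusted p values of 0.00720, 0.000534 and 6.25e-05, where Amotl1 was not called with library size only (0.0708).

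**Figure D3:**
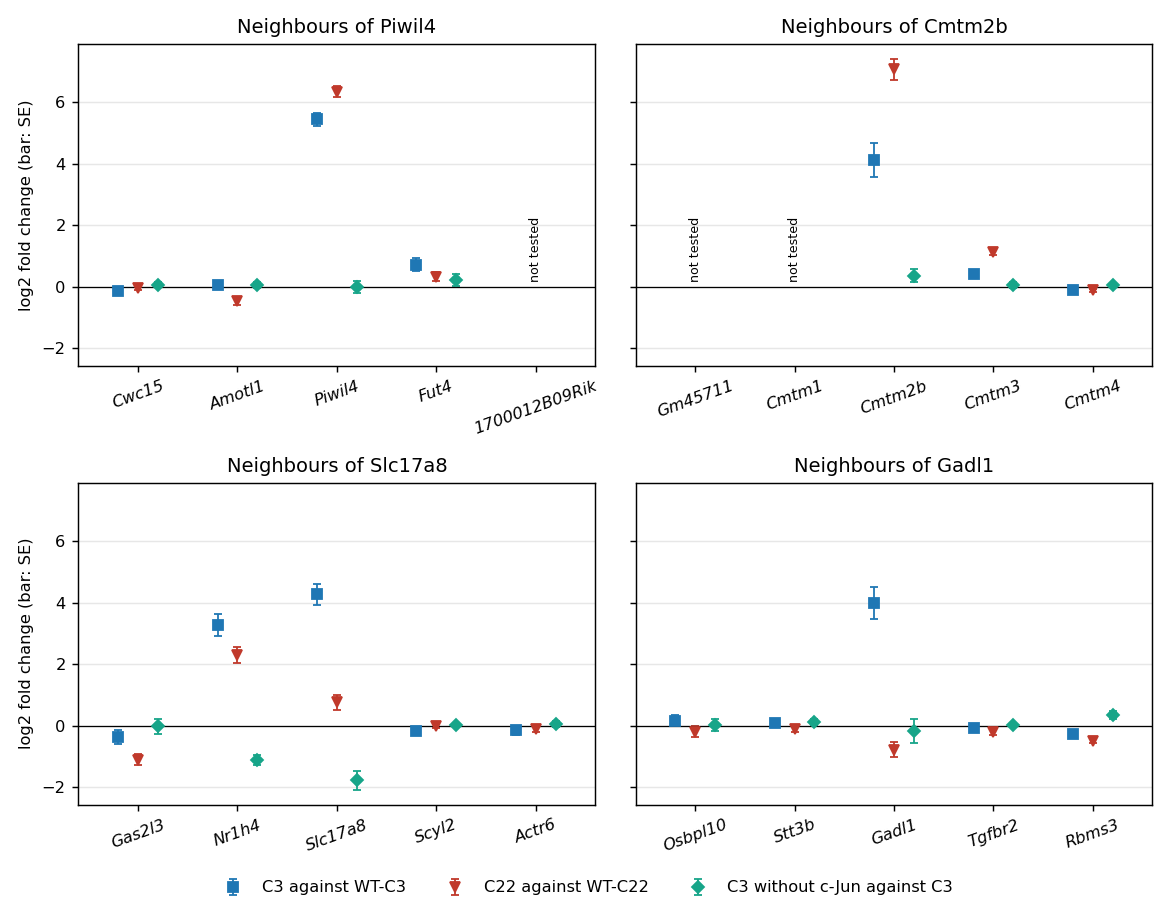
Log2 fold change with its SE (y axis) of each gene and of the 2 nearest protein-coding genes on each side (x axis, in chromosome order), for the models against their controls and for C3 without c-Jun against C3. Nr1h4, beside Slc17a8, has 3.27, 2.29 and -1.12 in these comparisons, and genes marked as not tested were below the filter.

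Reads of overlapping genes may bear on these counts. The library kit keeps strand, but the strand setting of the counting is not given in the sources used here. Piwil4 shares exon bases with Gm10706, a long noncoding RNA on the opposite strand with 21 counts over all 25 libraries. Gadl1 shares exon bases with Gm9385, a pseudogene on the opposite strand. Gm9385 had 43, 38, 42, 49 and 66 counts in WT-C3 from the youngest to the oldest age, more than Gadl1 in each of these libraries. In C3 it had 45, 34, 45, 27 and 61 counts, more than Gadl1 at 9 weeks and fewer at the other ages. In C22 it had between 39 and 123 counts, more than Gadl1 in each library. The part of shared reads in the level of Gadl1 was not tested. In the shallow C3 library of 9 weeks Gm9385 was at 12.6 CPM, above all other libraries, and without that library the log2 fold change of Gadl1 in C3 was 4.09 (SE 0.52). Without it the log2 fold change in C3 was 5.44 (SE 0.22) for Piwil4, 4.37 (SE 0.30) for Slc17a8 and 4.01 (SE 0.54) for Cmtm2b. The edgeR adjusted p of Slc17a8 in C3 without c-Jun against C3 was then 0.0238.

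Other genes of the pathway of each gene were taken as lists. Of 29 other genes of the piRNA pathway and argonautes, 12 were expressed. In C3, 2 rose and 1 fell, with a median log2 fold change of 0.06 against 0.001 for all genes tested. Among all genes tested, 12.5% rose and 11.4% fell in C3, and 21.9% rose and 20.5% fell in C22. Tex15, which acts with Piwil4 in the silencing of transposons, rose by 2.42 in C3 (edgeR adjusted p = 0.000863, SE 0.36) and by 1.66 in C22 (edgeR adjusted p = 1.37e-05, SE 0.16). Piwil1, another PIWI gene, rose by 1.31 in C3 (edgeR adjusted p = 0.0245, SE 0.37) and by 1.11 in C22 (edgeR adjusted p = 0.00216, SE 0.23). The call in C3 was lost without the C3 library of 3 or 5 weeks or the WT-C3 library of 7, 9 or 12 weeks (0.0520 to 0.0641). Tdrkh, which helps to trim piRNAs, fell in C3 (-0.50) and in C22 (-0.39). In C22, 4 genes rose and 4 fell (median -0.09 against 0.005), and Piwil2 (1.02) and the trimming enzyme Pnldc1 (0.83) were among those that rose. Between C3 without c-Jun and C3, 0 of the 12 passed with edgeR, 1 had an unadjusted p under 0.05, as 7.83% of all genes tested did, and 1 passed with DESeq2, as 1.79% of all genes did. Tex15 (2.47) and Piwil1 (1.14) were also higher in WT-C22 than in WT-C3, where the call of Piwil1 was lost when the 9-week (0.0557) or 12-week (0.0515) WT-C3 library was left out. Markers of germ cells, the cells Piwil4 is known from, were low. Tnp1 and Prm1 had 0 counts in every library, 0 of the 8 markers passed the filter, and 1 to 3 of the 8 were above 3 counts in all libraries of a group. Their summed level was between 1.38 and 4.53 CPM over the 25 libraries. The part of germ cells in the level of Piwil4 was not tested.

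Of 12 other genes of the SLC17 family and of vesicular transmitter transport, 3 were expressed. Among all genes tested, 12.5% rose and 11.4% fell in C3, and 21.9% rose and 20.5% fell in C22. In C3, Slc18a2, a vesicular monoamine transporter, rose by 1.5 (edgeR adjusted p = 0.00482, SE 0.30), and in C22 Slc17a5, which exports sialic acid from lysosomes, rose by 0.33 (edgeR adjusted p = 0.0136, SE 0.09). The list median was 0.15 in C3 and 0.03 in C22. Of 34 genes of glutamate uptake, synthesis and receptors, 18 were expressed. In C3, 2 rose and 0 fell (median 0.09), namely the AMPA receptor subunits Gria2 (2.48, SE 0.52, edgeR adjusted p = 0.00587) and Gria1 (1.81, SE 0.23, edgeR adjusted p = 0.000368). DESeq2 gave 3 higher and 2 lower, where 27.7% of all genes passed with it in either direction. With edgeR, 8 of the 18 had an unadjusted p under 0.05, against 37.1% of all genes tested. In C22, 3 rose and 4 fell (median -0.04), among them Gria2 (1.91) and the amino acid transporter Slc1a4 (1.12), which rose, and the glutamate transporter Slc1a2 (-1.70), which fell. Without c-Jun, Gria1 fell by 1.54 compared to C3 (edgeR adjusted p = 0.0420, SE 0.29). That call was lost without any of 8 libraries in turn, which are those of C3 without c-Jun of 5, 7, 9 and 12 weeks and those of C3 of 5, 7, 9 and 12 weeks (0.0521 to 0.152), and with edgeR 4 of the 18 had an unadjusted p under 0.05, against 7.83% of all genes tested. DESeq2 gave 2 higher and 1 lower there, where 1.79% of all genes passed with it in either direction. Gria2 was not called there with edgeR. Against WT-C3, with 1 library left out, its log2 fold change was 4.19 to 4.61 in C3 without c-Jun and 1.82 to 2.76 in C3. Gria2 in C22 was not called without the WT-C22 library of 7 (0.0544) or 9 weeks (0.0583). The summed level of 8 markers of sensory and motor neurons, whose axons run in the nerve, was between 51.7 and 78.6 CPM in WT-C3, 52.9 and 68.7 in C3, 51.5 and 71.0 in C3 without c-Jun, 49.1 and 79.6 in WT-C22 and 27.4 and 32.7 in C22. The part of axons in the level of Slc17a8 was not tested. Of the 2 neuron markers that passed the filter, 1 fell in C3 and 2 fell in C22.

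Of 20 other genes of beta-alanine, taurine and carnosine, 15 were expressed. With edgeR, 12.5% of all genes tested rose and 11.4% fell in C3, and 21.9% rose and 20.5% fell in C22. From this list, 0 rose and 4 fell in C3 with edgeR, with a median of -0.33. DESeq2 gave 0 and 5 (27.7% of all genes passed with it), and 6 had an unadjusted p under 0.05 (37.1% of all genes). The 4 that fell with edgeR were Cndp1, which cleaves carnosine (-0.74, SE 0.19, edgeR adjusted p = 0.0150), Abat (-0.39) and Aldh6a1 (-0.57), which break down beta-alanine, and Carnmt1 (-0.33), which methylates carnosine. The call of Carnmt1 was lost without the C3 library of 7 weeks (0.0541), with no filter (0.0691) and in 1 fit of all libraries (0.1001). The call of Aldh6a1 was lost with library size only (0.0652) and without the C3 library of 3, 5 or 7 weeks or the WT-C3 library of 7, 9 or 12 weeks (0.0588 to 0.0731). In C22, 0 rose and 5 fell with edgeR and with DESeq2 (median -0.19, 5 with an unadjusted p under 0.05, against 44.7% of all genes called by DESeq2 and 50.3% with an unadjusted p under 0.05), and Cndp1 fell from 29.2 to 2.31 CPM, a log2 fold change of -3.66 (edgeR adjusted p = 1.72e-07, SE 0.20). The taurine transporter Slc6a6 fell there by 0.75 (edgeR adjusted p = 0.000526, SE 0.12). Between C3 without c-Jun and C3, 0 of the 15 passed with edgeR or DESeq2 and 2 had an unadjusted p under 0.05, against 7.83% of all genes tested. In C3 without c-Jun against WT-C3, 2 rose and 2 fell with edgeR (median -0.10), where 10.3% of all genes rose and 11.3% fell. In WT-C22 against WT-C3, 6 were higher and 1 was lower (median 0.28), where 9.99% of all genes were higher and 11.7% lower. The summed level of 8 skeletal muscle markers, since Gadl1 is known from muscle, varied widely within each group. It was between 23.0 and 3522 CPM in WT-C3, 152.9 and 5553 in C3, 6.94 and 911 in C3 without c-Jun, 20.5 and 9020 in WT-C22 and 54.2 and 2259 in C22, and of 7 muscle markers tested 0 were differentially expressed in C3 with edgeR, 1 with an unadjusted p under 0.05 and 1 with DESeq2. The part of muscle in the level of Gadl1 was not tested.

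Of 18 other genes of the CMTM family and of MARVEL proteins, 13 were expressed. In C3, 2 rose and 3 fell (median -0.10), where 12.5% of all genes tested rose and 11.4% fell. Marveld3, a protein of tight junctions, rose from 0.141 to 3.65 CPM in C3, by a log2 of 4.57 (edgeR adjusted p = 6.13e-05, SE 0.43). In C22 it rose from 0.259 to 12.6 CPM, by 5.63 (edgeR adjusted p = 3.56e-07, SE 0.35). In C22, 3 rose and 3 fell (median -0.08), with Cmtm3 and Cklf (0.62) as the others that rose. Among all genes tested in C22, 21.9% rose and 20.5% fell. Cmtm6, Myadm and the myelin proteolipid gene Mal fell in both models, with log2 fold changes of -0.86, -0.53 and -0.63 in C3 and -1.31, -0.79 and -1.08 in C22. Between C3 without c-Jun and C3, 0 of the 13 passed with edgeR or DESeq2 and 2 had an unadjusted p under 0.05, against 7.83% of all genes tested.

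**Figure D4:**
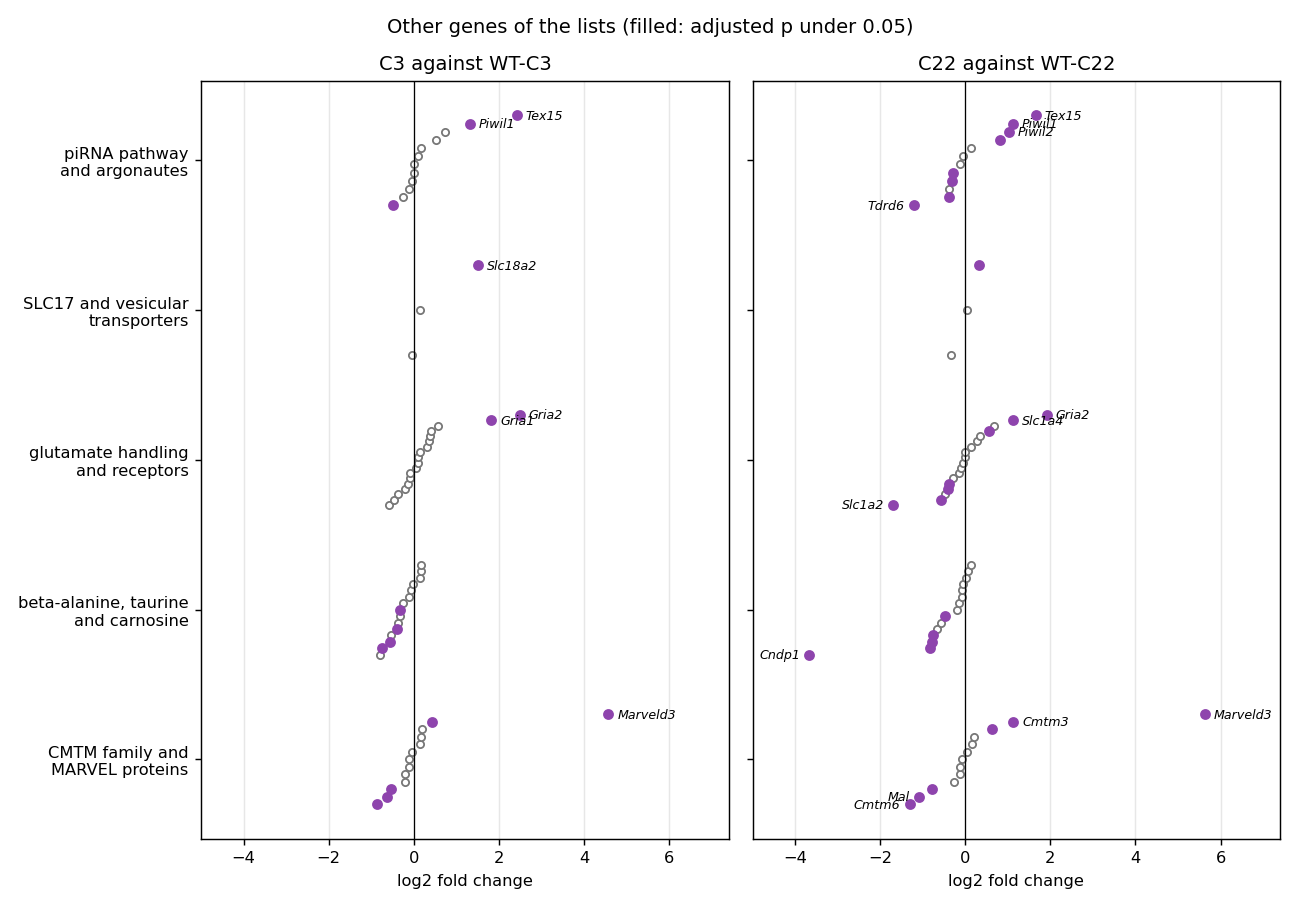
Log2 fold change (x axis) of the other genes of 5 lists in each model against its control, with 1 point per gene, filled at an adjusted p under 0.05 and named where it is past 1 in either direction. Marveld3 (4.57 and 5.63) lies farthest to the right and Cndp1 in C22 (-3.66) farthest to the left.

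Markers of Schwann cell states moved with the models as well. The summed level of 11 markers of repair and immature Schwann cells was between 191 and 224 CPM in WT-C3, 399 and 511 in C3, 230.5 and 266 in C3 without c-Jun, 201 and 239 in WT-C22 and 318 and 442 in C22. Like Slc17a8, it was lower in C3 without c-Jun than in C3 with no overlap. Unlike for Slc17a8, its range in C22 overlapped with that in C3 and lay above that in WT-C22. Jun is itself on that list, Shh was at 0 in all C22 libraries, and the part of this state in the levels of the 4 genes was not tested. Of its 7 expressed markers, 6 rose in C3, 4 rose and 2 fell in C22, and 2 (Ngfr and Jun) fell without c-Jun, or 5 with DESeq2. Among all genes tested, 12.5% rose and 11.4% fell in C3, and 21.9% rose and 20.5% fell in C22. Between C3 without c-Jun and C3, 0.329% of all genes fell with edgeR, and 1.79% passed in either direction with DESeq2. The summed level of myelinating Schwann cell markers was between 57636 and 101214 CPM in WT-C3, 38521 and 57962 in C3 and 36299 and 67930 in C3 without c-Jun. It was between 46279 and 95213 CPM in WT-C22 and 25857 and 39187 in C22. Of these 10 markers, 3 rose and 2 fell in C3, or 4 and 3 with DESeq2, with which 27.7% of all genes passed there in either direction. The calls of Mag and Ncmap, which are 2 of the 3 that rose, were lost without any of 8 and 6 libraries in turn (adjusted p up to 0.0914 and 0.0684). In C22, 2 rose and 4 fell, and without c-Jun 0 passed with edgeR or DESeq2 and 0 had an unadjusted p under 0.05. Of the markers of macrophages (8), fibroblasts (6), perineurial cells (5) and endothelial cells (6), 1, 0, 4 and 1 fell in C3 and 2, 1, 5 and 4 fell in C22, in this order, and 1 macrophage marker (Aif1) rose in C22. Calls lost when 1 library was left out were those of Cd163 (macrophage), Slc2a1 (perineurial) and Egfl7 (endothelial) in C3, of Aif1 and Mrc1 (macrophage) and Lypd2 (perineurial) in C22, and of Ncam1 among the markers of repair and immature Schwann cells in C3.

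The genes with the pattern most like each of the 4 were found by the Pearson correlation of log2 CPM over the 25 libraries, among 13993 genes. The libraries share group, age and strain, so these values describe the pattern of the groups for the most part. For Piwil4 they were Tbx2, Marveld3, Gypc, Pou3f1 and Cdh6, with r from 0.966 to 0.968. Pou3f1 encodes a transcription factor of promyelinating Schwann cells and had means of 37.2 CPM in WT-C3, 162.7 in C3, 154.0 in C3 without c-Jun, 36.1 in WT-C22 and 450.2 in C22. For Cmtm2b they were Gm50484, Arnt2, Plxna1, Gm32633 and Gypc, with r from 0.956 to 0.964. For Gadl1 they included Nrg1 (0.944), Spata13, Disc1 and Dock5. Nrg1, a ligand of ErbB receptors, had means of 0.960 CPM in WT-C3, 7.01 in C3, 9.13 in C3 without c-Jun, 0.925 in WT-C22 and 0.904 in C22, so that it was high in the same 2 groups as Gadl1. For Slc17a8 they included Btc, Pvt1, its neighbour Nr1h4, and Anxa1, with lower values of r from 0.840 to 0.864. Btc, which encodes the growth factor betacellulin, had means of 12.7 CPM in C3 and 6.83 in C3 without c-Jun, but 11.3 in C22.

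Among the 4 genes, r over the 25 libraries was highest for Piwil4 with Cmtm2b (0.939) and for Slc17a8 with Gadl1 (0.754). After the group means were removed, the change with age, the variation between pools and counting error remained. Then r was 0.678 for Piwil4 with Cmtm2b and 0.657 for Slc17a8 with Gadl1. For the other pairs it was between -0.630, for Slc17a8 with Cmtm2b, and -0.226. Libraries of the 2 controls, with few counts, are among these points, and the values are descriptions of 25 libraries that share ages. The SD of the log2 CPM of Cmtm2b was 2.12 in WT-C3 and 1.19 in WT-C22, against 0.52 in C3, 0.22 in C3 without c-Jun and 0.30 in C22. The control libraries near the limit of detection thus weigh most in the r of Cmtm2b with group means removed.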

How the data were processed

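RNA of whole sciatic nerve was measured in 25 libraries of 5 groups, taken from the labels. Per the methods and the submitters' processing notes, the authors trimmed reads (cutadapt 2.10), aligned them to GRCm39 with the human transgene locus (STAR 2.7.5a), removed duplicates by molecular identifier (UMI-tools 1.1.1), counted reads on Ensembl genes (HTSeq 0.12.4) and deposited raw counts without normalization. The 5 summary lines of each library stayed out of library sizes, and 8.12% to 12.1% of reads were on no gene. Depth was 2140142 to 49072746 counts on genes. Symbols came from GENCODE M39.

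Tests used edgeR 4.0.16 in R 4.3.3. Genes entered where log2 CPM exceeded 1 in 7 or more libraries (25%), and were scaled by TMM among the libraries compared, and tested by quasi-likelihood with group as the only term. P values were adjusted by Benjamini-Hochberg over all genes tested (threshold 0.05), and SE was derived from the F statistic. Age was fitted over genes passing filterByExpr. The labels do not say whether pools are separate litters, so p values measure the spread between these libraries only. The main fits did not pair libraries of an age, and age as a block was an alternative in every comparison. Pairing was judged apt only where, with group means removed, all ages correlated above 0.1 across genes. This was so in 1 comparison, of C3 without c-Jun and C3 (0.415, 0.114, 0.350, 0.243 and 0.605). The fits were also run on simulated counts with the same spread for all genes. Simulated comparisons of groups held no change with age, whereas these libraries differ in age, so they are not used as support here.

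The 4 genes, the lists, the comparisons and the alternatives were chosen with earlier results of these data known. The genes named are the 4, members of the lists, the 2 nearest protein-coding genes on each side, the 5 genes most like each in pattern, human PMP22 and Jun, and genes ranked beside the 4. Of the genes alike in pattern, 1 is not reported here. The lists (5 pathways and markers of Schwann cell states, macrophages, muscle, germ cells, neurons, fibroblasts, perineurial and endothelial cells) hold genes of known role. Protein sequences were not used here. Alternatives were DESeq2 1.42.0 (size factors and Wald test), library size only, the likelihood ratio test, no filter, filterByExpr, 1 fit of all libraries, age as a block, and each library left out, and for age a linear slope, 2 degrees of freedom and the log2 CPM filter.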

Additional observations from a re-analysis of the deposited data

How the results depend on the processing

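The alternatives changed no direction of the 4 genes in C3, in C22 or in C3 without c-Jun against WT-C3, and no call in the last of these. With library size only, the log2 fold change of Slc17a8 in C22 was 0.92. Leaving out 1 library at a time gave 5.31 to 5.71 for Piwil4 and 3.81 to 5.20 for Cmtm2b in C3, where the highest values came without the WT-C3 library of 3 weeks, and 6.68 to 7.48 for Cmtm2b and 0.61 to 0.98 for Slc17a8 in C22. Between C3 without c-Jun and C3, 77 genes were differentially expressed. The number was 250 with DESeq2, 193 with the likelihood ratio test, 134 with no filter, 139 in 1 fit of all libraries and 273 with age as a block. With 1 library left out it was 43 to 98. The cause was not tested. Slc17a8 stayed between -2.001 and -1.63 there, with adjusted p from 0.0211 to 0.0849 with 1 library left out and from 4.24e-06 to 0.0246 otherwise. Piwil4, near 0 in that comparison, turned to 0.0184 with library size only and 0.0128 with no filter, and was between -0.12 and 0.14 with 1 library left out, and Gadl1 was between -0.41 and 0.0649. Age as a block changed no call of the 4 genes. For Piwil4 in WT-C22 against WT-C3 the log2 fold change was between 0.79 and 1.21 with 1 library left out. The slopes with age lost calls most often. With 1 library left out they were between -0.0534 and 0.17 for Piwil4 in C3 without c-Jun, -0.0588 and 0.0128 in C22, -0.0902 and 0.21 for Slc17a8 in WT-C3, and -0.10 and 0.0495 for Gadl1 in C22, and the slope of Piwil4 in C3 without c-Jun minus that in C3 was between -0.0168 and 0.20. The counts limit Cmtm2b, Slc17a8 and Gadl1 in WT-C3 most. The change in C22 minus that in C3 was computed with each library left out as an alternative chosen after seeing the data, and kept its sign for the 4 genes, with 0.63 to 1.06 for Piwil4, 1.89 to 3.37 for Cmtm2b, -3.69 to -3.31 for Slc17a8 and -5.26 to -4.54 for Gadl1.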
